A study of Homo sapiens with 10 samples.

Results

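The newly made RNA of this study was represented by 1 peak list, from V16A cells and labelled EU 40min MeRIP. It held 5044 of the 16319 peaks in the 5 single-library lists of the series, and those peaks lay in 2389 of 4327 named genes. EU is read here as ethynyl uridine, a nucleoside that is built into RNA while it is transcribed, and 40 min as the labelling time. The labels give no oxygen condition for this library and do not describe how labelled RNA was separated. The list was set against each of 4 lists from unlabelled RNA, called steady-state here, namely Hypoxia replicates 1 and 2 and Normoxia replicates 1 and 2. All 5 libraries are labelled as the same castration-resistant prostate cancer line (CRPC-V16A, tissue prostate). The 4 steady-state libraries were labelled only by oxygen and replicate, with no oxygen level, time or genotype given, and nothing in the labels says that replicates came from separate cultures. The 5 input libraries of the 10 samples, and 2 further peak lists made per condition, were not analysed here.

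N6-methyladenosine (m6A) is the most abundant internal mark of messenger RNA. A nuclear methyltransferase complex writes it while RNA is being transcribed, most often at an adenosine followed by cytosine, with GGAC as a preferred core. In finished mRNA it is densest near stop codons, in long internal exons and in last exons, and marked transcripts tend to turn over faster. MeRIP recovers RNA fragments with an antibody to m6A, so a peak is a stretch of exon in which such fragments were called enriched. A peak is not an expression level, and the absence of a peak does not show that a gene was silent or unmethylated.

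For 79 EU peaks the exon blocks covered part of the first 50 bases of the gene, the only stretch of transcript for which sequence was used here (RefSeq windows, GRCh38.p14). The core GGAC, searched on the RNA strand only, was present in those first 50 bases in 11 of 78 such genes, against 19.7% of 15843 protein-coding windows. Among the EU peaks with the smallest deposited p whose blocks contained the core, 4 are shown because the core and the annotated start of the gene both lie within the bounds of the peak. The peak bounds also ran past the RefSeq start, by 73 bases in LCP1, 61 in NKG7, 264 in PHLDA1 and 24 in HCLS1, so these bases need not be the beginning of the transcript. Each is 30 bases, 5′ to 3′ on the RNA strand and written as DNA, with GGAC in capitals.
LCP1, chr13:46182128-46182157, minus strand: tcctggtcatacaccagtactaccaaGGAC
NKG7, chr19:51372622-51372651, minus strand: tcttgggctctaaGGACccaggagtctggg
PHLDA1, chr12:76031747-76031776, minus strand: gtGGACgcagcgggctttggaaaggcccca
HCLS1, chr3:121660854-121660883, minus strand: agagagggagtcggtgtGGACgcgaggagc
In NKG7, a protein of cytotoxic granules, the core was also inside a peak of Hypoxia replicate 2 and of Normoxia replicate 1. In LCP1 (an actin-bundling protein of blood cells), PHLDA1 (an early-response gene) and HCLS1 (a cortactin-like protein of blood cells), it was inside no steady-state peak. A match is a description of the letters and not a mapped m6A site.

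The lists differed in length and in what they held before any EU comparison. Hypoxia replicate 1 had 2879 peaks, Hypoxia replicate 2 had 6621, Normoxia replicate 1 had 212 and Normoxia replicate 2 had 1563, so each share below depends on how long the 2 lists are. Read totals were not used here, so the depth behind each list is unknown. The steady-state lists did not pair by label: 29.5% of the 139 genes of Normoxia replicate 1 were in Normoxia replicate 2, against 67.6% in Hypoxia replicate 2. Markers of T and NK cells, which a prostate line should lack, had peaks in the EU list (12 of the 15 genes with a peak in any list, 25 peaks). The steady-state lists held 23, 29, 7 and 0 such peaks, in the order Hypoxia replicates 1 and 2 and Normoxia replicates 1 and 2. By gene, the T and NK shares were 80.0% in EU and 73.3%, 86.7%, 33.3% and 0% in that order. Of all 4327 genes with a peak in any list, 55.2% were in EU and 29.1%, 49.7%, 3.21% and 20.7% in those libraries. Prostate and epithelial markers had 24 EU peaks in 11 of 17 genes, and 9, 17, 3 and 26 peaks in the same order. By gene, their shares were 64.7% in EU and 23.5%, 41.2%, 11.8% and 70.6% in the steady-state lists. KLK3, which encodes prostate-specific antigen, had 3 EU peaks, whereas KRT8 and KRT18, the luminal keratins, had none in any list. The EU list thus held both marker sets, and the Normoxia replicate 2 list held no T and NK marker at all. None of 10 macrophage or 7 B cell markers had a peak, and of 11 fibroblast and endothelial markers only VIM (3 EU peaks) and PECAM1 (none in EU) did. In bulk RNA, fewer cells of a type and less RNA per cell cannot be told apart, and the part of cell makeup in the results below was not tested.

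All values below describe 1 EU library without a replicate, and no difference was tested. Intervals are exact binomial (Clopper-Pearson) at 95% and cover counting error only, and peaks of 1 gene are not independent. Coordinates are in hg38.

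EU peaks were wider than steady-state peaks. The exonic width, summed over a peak's exon blocks, had a median of 199 bases in the EU list, where the 4 steady-state medians were 150 or 151. The upper tail showed it more: 16.2% of EU peaks (15.2 to 17.2) spanned at least 400 exonic bases, against 3.82%, 8.26%, 3.30% and 6.46% in Hypoxia replicates 1 and 2 and Normoxia replicates 1 and 2. The widths fell on a grid, with 87.9% of EU peaks within 2 bases of a multiple of 50, so that the medians are 1 grid step apart. Where an EU peak overlapped a peak of Hypoxia replicate 1, the EU peak was the wider in 576 of 930 pairs, with a median difference of 97 bases. In Normoxia replicate 2 it was wider in 742 of 976 pairs. Against Hypoxia replicate 2 the pairs were balanced, with 858 wider and 805 narrower. With the 4 longest lists shortened to their 1563 peaks of smallest p, the EU median was 198 bases and that of Hypoxia replicate 2 was 199. The difference from that library was thus not present at 1563 peaks. The medians of Hypoxia replicate 1 and Normoxia replicate 2 were 150 there. With Hypoxia replicate 2 cut only to the length of the EU list, the EU median stayed 49 bases above it.

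**Figure D1:**
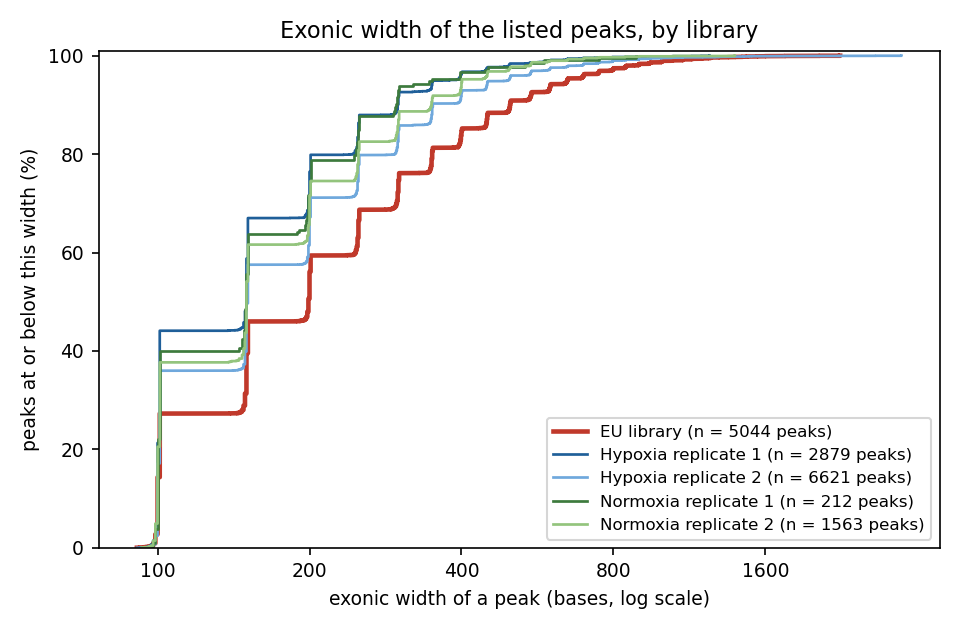
Cumulative share of peaks (%) against exonic width in bases on a log axis, with 1 line per library. The EU line (5044 peaks) runs to the right of the 4 others, with a median of 199 bases against 150 or 151, and all lines climb in steps near multiples of 50 bases.

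The widest EU peaks were in genes with few EU peaks apart from FLNA. NUFIP2, an RNA-binding partner of FMRP, had the widest at 2251 bases in 4 blocks, and its 5, 12, 0 and 6 steady-state peaks were more numerous than its 2 EU peaks. TNKS1BP1, a tankyrase-binding protein, had 1 EU peak of 2051 bases and 2, 5, 0 and 4 steady-state peaks. MED26, a Mediator subunit that acts in elongation, had 1 EU peak of 1893 bases and none elsewhere. IRF2BPL, a single-exon gene, had 1 EU peak of 1634 bases, where the 4 libraries had 3, 1, 1 and 4 peaks. The immediate early gene JUNB showed the same form: its 1 EU peak of 1230 bases (chr19:12791889-12793118) contained both peaks of Hypoxia replicate 2, of 99 and 149 bases. In IER2 the single EU peak covered 942 bases, and Hypoxia replicates 1 and 2 and Normoxia replicate 2 each had 2 peaks.

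Peaks that joined 2 or more exons were fewer in the EU list than in 3 of the 4 others. The share was 19.8% (18.7 to 21.0) in EU, 35.9% and 36.7% in the hypoxia lists and 29.7% in Normoxia replicate 1, but 9.92% in Normoxia replicate 2. The gap was smaller or of the other sign within shared genes. Within the genes that EU shared with each library, the EU share was 30.8% against 33.4% in Hypoxia replicate 1, and 26.2% against 32.6% in Hypoxia replicate 2. It was 30.8% against 30.4% in Normoxia replicate 1, and 15.2% against 9.61% in Normoxia replicate 2. EU genes with no steady-state peak had the lowest share, at 14.1%, and those with peaks in 2 steady-state libraries had 28.4%. Peaks over many exons did occur in the EU list, led by FLNA (filamin A, an actin crosslinker), where 1 EU peak joined 11 blocks and 1748 bases. FLNA had 11 EU peaks, 17 in Hypoxia replicate 1, none in Hypoxia replicate 2, 9 in Normoxia replicate 1 and 1 in Normoxia replicate 2. EZR, which encodes ezrin, a linker of membrane and actin, had 1 EU peak of 8 blocks where Hypoxia replicate 1 had 5 separate peaks.

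At full list length EU peaks lay toward the end of the gene more often than the peaks of each steady-state library, and at equal length less often than those of Normoxia replicate 2. Of 4720 EU peaks placed in a RefSeq gene span, 49.1% (47.7 to 50.5) had their middle base in the last 20% of the span, against 41.6%, 44.0%, 30.8% and 46.7% in the 4 lists. The first 20% held 12.4% of EU peaks and 14.9%, 14.1%, 17.9% and 15.1% of the others. The span includes introns, and coding regions and untranslated regions were not placed, because no exon annotation was used here. In genes shared with each library the share of EU peaks in the last 20% was 44.4% against 41.8%, 45.8% against 44.0%, 44.6% against 34.7%, and 46.2% against 44.3%. The direction was thus the same in all 4 pairs but the gap was under 3 percentage points in 3 of them. At 1563 peaks per list the share was 43.3% in EU, 41.8% and 43.3% in Hypoxia replicates 1 and 2 and 46.7% in Normoxia replicate 2, which was then the highest. With the longer list of each pair cut to the length of the shorter, EU differed by 4.97, 3.96, 4.49 and -3.44 percentage points from the 4 libraries in the order given above. EU peaks of 1 block reached 52.3%, the same as in Hypoxia replicate 2, and 48.75%, 36.8% and 47.4% were reached in Hypoxia replicate 1 and Normoxia replicates 1 and 2. EU peaks over several blocks reached 36.2%, between the 28.8%, 29.6% and 17.7% of Hypoxia replicates 1 and 2 and Normoxia replicate 1 and the 40.1% of Normoxia replicate 2. Within 200 bases of the start lay 2.56% of placed EU peaks, against 4.49%, 4.00%, 7.18% and 2.78%, so EU and Normoxia replicate 2 were lowest there. Within 1000 bases the share was 9.32% in EU, against 12.8%, 10.2%, 24.1% and 13.6%. In that wider window Normoxia replicate 2 lay above both hypoxia lists. With each pair cut to the same length, EU differed in the first 20% of the span by -1.53, -1.73, 0.472 and -0.112 percentage points.

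**Figure D2:**
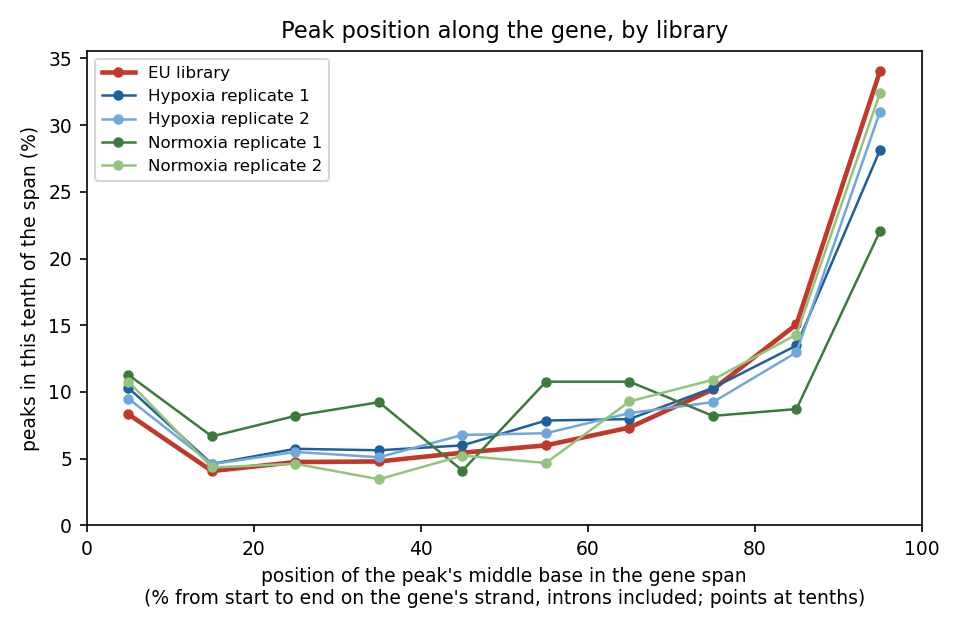
Share of placed peaks (%) in each of 10 equal bins of the gene span, from start to end on the gene's strand with introns included, with 1 line per library. All 5 lines are highest in the last bin, and the EU line is the highest there and the lowest in the first bin.

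The EU list had more genes and fewer peaks per gene than Hypoxia replicate 2, the longest list. It averaged 2.11 peaks per gene, against 2.29, 3.08, 1.53 and 1.74, and 45.4% of its genes had 1 peak. Of the 4327 genes with a peak in any of the 5 lists, 55.2% had an EU peak, and 29.1%, 49.7%, 3.21% and 20.7% had one in Hypoxia replicates 1 and 2 and Normoxia replicates 1 and 2. The genes with most listed EU peaks were EPPK1 (epiplakin, a cytoskeletal linker) with 27, MKI67 (the proliferation antigen Ki-67) with 15 and KIF21B (a kinesin) with 13. EPPK1 had 4, 21, 0 and 16 listed steady-state peaks, but many of its peaks lay over each other. With overlapping peaks of a gene counted as 1, EPPK1 had 12 EU stretches and 4, 11, 0 and 9 elsewhere, and MKI67 with 15 ranked first. MKI67 had 9, 18, 0 and 2 steady-state peaks, none of them overlapping. ADAM19 (12 EU peaks), SEMA4D (12), CCND2 (12) and AKNA (11) had 0 peaks in Normoxia replicate 2 and between 9 and 14 in Hypoxia replicate 2. Other genes with 11 listed EU peaks did not share this: FLNA, RNF213, TMEM184A and FAM83H had 0, 28, 1 and 8 in Hypoxia replicate 2. In Normoxia replicate 2 these genes had 1, 0, 2 and 10. SPN, which encodes the leukocyte sialoglycoprotein CD43, had 11 in EU, 11 in Hypoxia replicate 2 and 0 in the others.

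The largest EU excess in listed peaks was in TMEM184A, a transmembrane protein, with 11 EU peaks against 0, 1, 0 and 2. With overlapping peaks counted as 1, TMEM184A had 8 EU peaks against 0, 1, 0 and 2. That is a smaller excess than in GRIN3A, ANAPC2 or KNOP1. GRIN3A (an NMDA receptor subunit) and ANAPC2 (the cullin-like subunit of the anaphase-promoting complex) had 8 EU peaks each and KNOP1 (a nucleolar protein) had 7, all with no steady-state peak. The largest deficits were in CDK6, the G1 cyclin-dependent kinase, with 0 in EU and 20 in Hypoxia replicate 2, and RNF213, a large E3 ligase, with 11 and 28. MYO1F (an unconventional myosin), DOCK10 and PREX1 (both guanine nucleotide exchange factors) had 14 peaks each in Hypoxia replicate 2 and none in EU. These genes were ranked by the difference itself, so their values are a description. In the genes that EU shared with Hypoxia replicate 1, 177 of 548 had more EU peaks and 202 had fewer. Against Hypoxia replicate 2 the counts were 199 and 419 of 858 genes, and against Normoxia replicate 2 they were 212 and 140 of 576.

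At the level of single peaks, 2109 EU peaks (41.8%, 40.4 to 43.2) shared at least 1 exonic base on the same strand with a peak of some steady-state library. Without Hypoxia replicate 2, which alone met 29.7% of EU peaks, the share was 27.3%. In the other direction EU peaks met 28.4% and 23.4% of the peaks of Hypoxia replicates 1 and 2, and 55.7% and 54.1% of those of Normoxia replicates 1 and 2. Within shared genes the positions coincided more often: 54.4%, 68.2%, 45.6% and 58.9% of EU peaks were met. Even so, 95 of 548 genes shared with Hypoxia replicate 1 (17.3%) had no EU peak that touched a peak of that library. The deposited p did not separate the EU peaks that were met, since 4 equal parts of the list, from smallest to largest p, were met in 44.1%, 40.4%, 38.9% and 43.9%. Width did differ: the median was 151 bases for the 2935 EU peaks met by no library, 201 for those met by 1, 250 by 2, 448 by 3 and 395 for the 21 met by all 4. A wider peak has more bases that can be met, and that part was not tested.

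**Figure D3:**
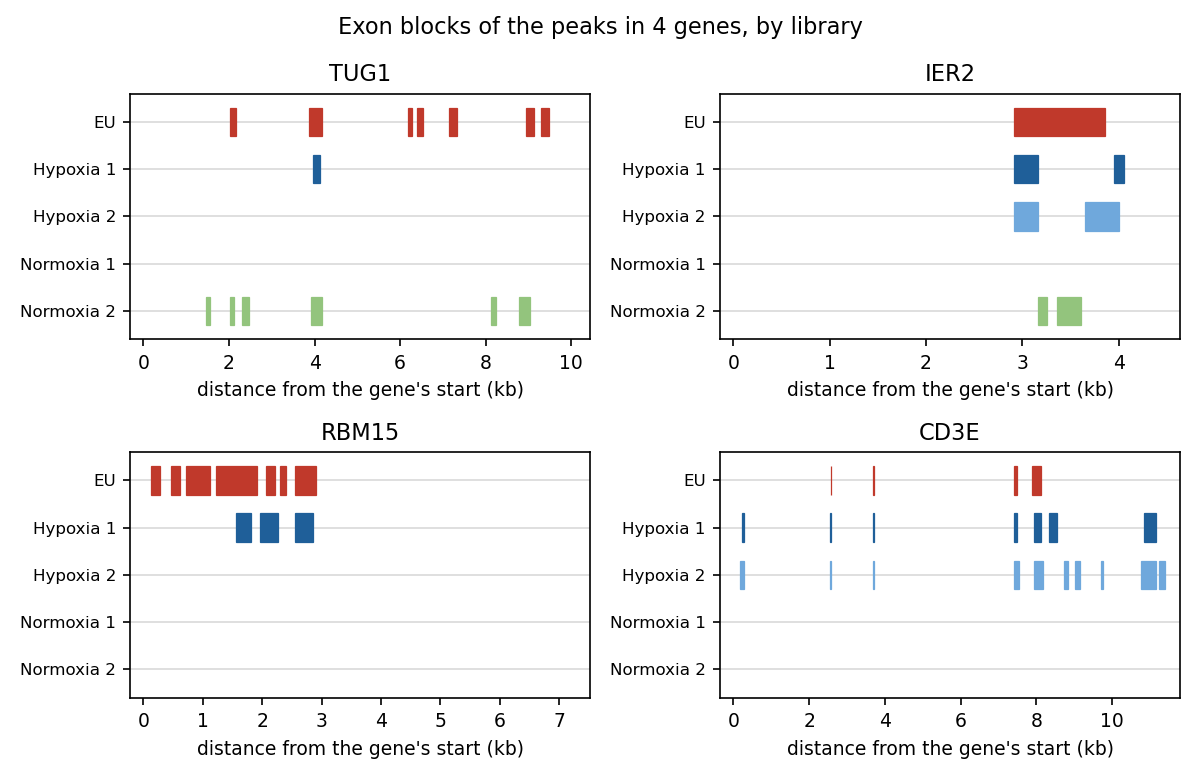
Exon blocks of the peaks in 4 genes, with 1 row per library and distance from the gene's start in kb on the horizontal axis. TUG1 has 7 EU peaks and 6 in Normoxia replicate 2, IER2 has 1 wide EU peak, RBM15 has 7 EU peaks against 3 in Hypoxia replicate 1, and CD3E has peaks in EU and both hypoxia libraries only.

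The share of steady-state genes that also had an EU peak differed with the libraries that listed them. Of 464 genes listed only in Normoxia replicate 2, 52.4% (47.7 to 57.0) had an EU peak, against 27.0% (24.6 to 29.6) of 1257 genes listed only in Hypoxia replicate 2 and 23.7% (19.9 to 27.7) of 482 listed only in Hypoxia replicate 1. Listing in both hypoxia libraries gave 43.5%, and in both plus Normoxia replicate 2 gave 87.1% of 124 genes. Over all genes with a hypoxia peak, 76.6% of 428 that also had a Normoxia replicate 2 peak were in the EU list, and 30.8% of 2299 that did not. Normoxia replicate 2 is also a shorter list than either hypoxia list and the only one with no T and NK marker peak, and the part of these in the shares was not tested. Normoxia replicate 1 does not give the same comparison, as 5 of the 30 genes listed only there had an EU peak.

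**Figure D4:**
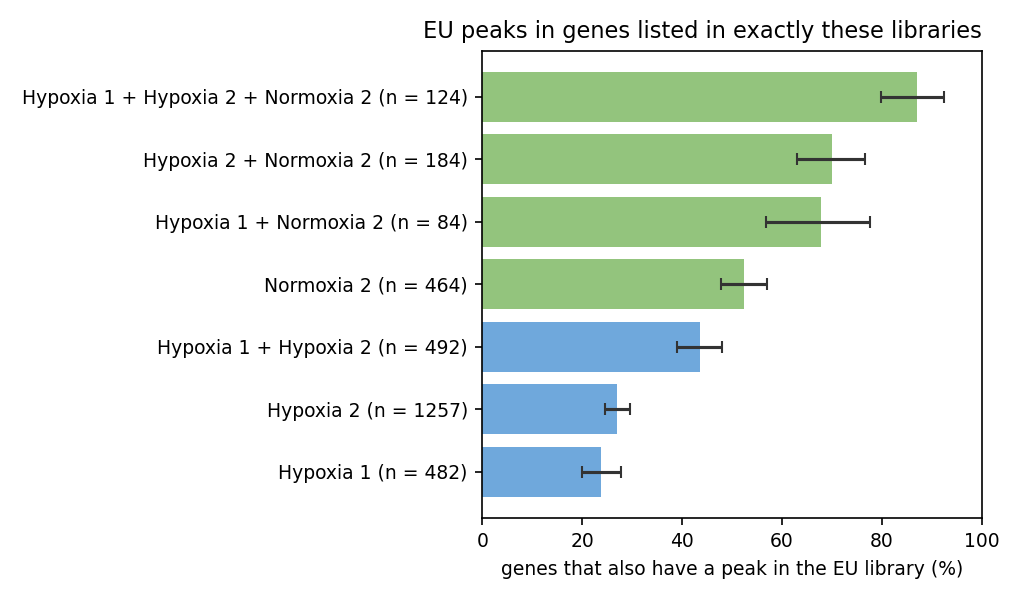
Share of genes (%) that also had an EU peak, for genes listed in exactly the steady-state libraries named on the left (number of genes in parentheses), with exact 95% binomial intervals that cover counting error only. The 4 groups with Normoxia replicate 2 (green) lie between 52.4% and 87.1%, and the 3 with hypoxia libraries only (blue) between 23.7% and 43.5%.

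Genes with a peak in all 5 libraries numbered 19, and 127 when Normoxia replicate 1 was left out. They included MALAT1, a nuclear long non-coding RNA, with 3, 2, 2, 1 and 1 peaks in the order EU, Hypoxia replicates 1 and 2, Normoxia replicates 1 and 2. One EU peak of MALAT1 (chr11:65499707-65500970, 491 exonic bases) met a peak in every other library, and its other two met none. H2AFX, the histone variant H2A.X, had 2, 6, 4, 2 and 7 peaks, and several of these lay over each other within 1 list. FOXA1, a pioneer factor of prostate epithelium, had 2, 2, 4, 2 and 2, with a widest EU peak of 1442 bases. That peak (chr14:37591325-37593929) ended at the same base as the 1392-base peak of Normoxia replicate 2, and all 4 peaks of Hypoxia replicate 2 lay inside its bounds. ACTB (beta-actin) had 4, 3, 3, 4 and 1. USP22, a deubiquitinase of the SAGA complex, had 1 in each.

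Of the 4327 genes, 1101 (25.4%) had a peak in the EU list alone, which is 46.1% of EU genes. The same count for each other library against the remaining lists was 368 (29.3%), 917 (42.6%), 25 (18.0%) and 221 (24.6%), so the EU share was close to that of Hypoxia replicate 2, the other long list. The count depends on list length: with all 5 lists at 212 peaks it was 81. With the 4 longest lists at 1563 peaks, 419 of 696 EU genes (60.2%) were in none of the other lists, against 58.5%, 60.2% and 68.1% for Hypoxia replicates 1 and 2 and Normoxia replicate 2. The EU-only gene with the smallest p was HNRNPA0, an RNA-binding hnRNP, with 3 peaks and the first at chr5:137752930-137753179. DUSP1, a phosphatase that switches off MAP kinases, had 1 peak of 395 bases at chr5:172768582-172768976. PLK2, a stress-induced polo-like kinase, had 1 of 597 bases at chr5:58454181-58454913. ATXN1L, a relative of ataxin-1, had 3 peaks, and COA7, a cytochrome c oxidase assembly factor, had 1 of 595 bases in 2 blocks. HERPUD1 (endoplasmic reticulum stress) had 1 peak, ZBTB42 (a zinc finger repressor) 6, TSSK6 (a testis kinase) 3, MARS2 (mitochondrial methionyl-tRNA synthetase) 2 and UFSP1 (a UFM1 protease) 2. CIRBP-AS1 had 1 peak, but it is antisense to CIRBP and whether the authors' counting kept the strands apart is not known from the labels.

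Zinc finger genes named ZNF had a high EU share and few steady-state members. Of 190 with a peak in any list, 165 (86.8%) had one in EU, against 19, 36, 0 and 30 in the 4 libraries, and 117 (61.6%) were listed in EU alone. All genes together stood at 55.2% and 25.4% for these 2 shares. The list was drawn by name and includes 2 antisense names. Many ZNF genes encode KRAB-type repressors that share repeated finger exons, so reads may be split among close copies. Members were not classed by type here. The listed genes carried 400 EU peaks, of which 60 (15.0%) met a steady-state peak, 59.4% lay in the last 20% of the span and 7.00% joined exons. ZNF334 had 2 EU peaks and ZNF839 had 3, with none elsewhere. ZNF148 had 5, with the widest 948 bases, and 1 in Normoxia replicate 2. Among the members with 2 steady-state libraries and no EU peak, ZNF195 had 2 and 5 hypoxia peaks and ZNF777 had 1 and 1. At 1563 peaks per list, 51 ZNF genes (26.8%) were in EU, against 8, 11 and 30 in Hypoxia replicates 1 and 2 and Normoxia replicate 2, where all genes stood at 16.1%, 16.0%, 14.4% and 20.7%. Without ZNF genes, the EU share of the remaining 4137 genes was 53.8%.

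**Figure D5:**
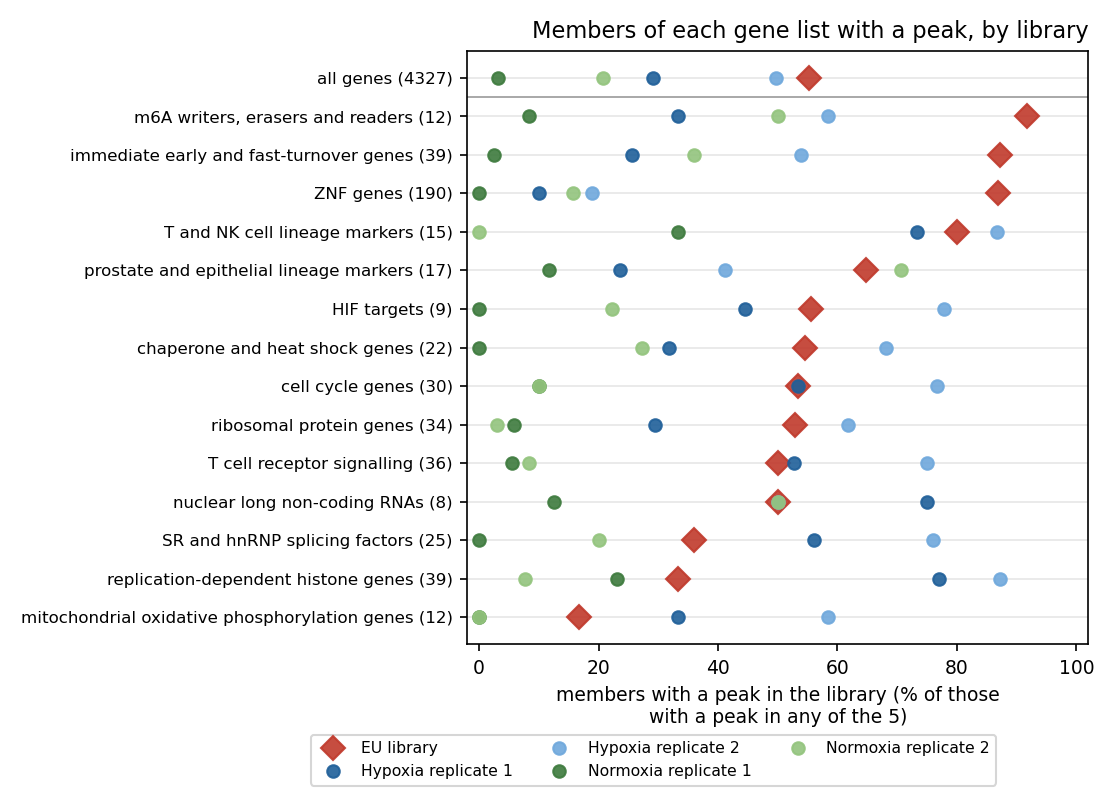
Members with a peak in each library (% of the members with a peak in any of the 5, number in parentheses), with the red diamond for EU and circles for the 4 steady-state libraries, and all 4327 genes in the top row. EU lies far above the others for ZNF genes (86.8%) and below both hypoxia libraries for histone genes (33.3%).

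Immediate early and other short-lived transcripts were the second group with a high EU share. Of 39 with a peak, 34 (87.2%) were in EU, against 10, 21, 1 and 14, where all genes stood at 55.2%, 29.1%, 49.7%, 3.21% and 20.7%. In EU alone were 12 (30.8%), near the 25.4% for all genes. JUND, an AP-1 subunit, had 2 EU peaks and 3, 2, 0 and 2 elsewhere, and IER5, a stress-response gene, had 3 against 0, 5, 0 and 1. JUN had 2 EU peaks of 799 and 848 bases, where Hypoxia replicate 1 had 3 and Hypoxia replicate 2 had 1. MCL1, a short-lived survival factor, had 3, 3, 5, 0 and 1 peaks. FOS had none in any library. DUSP6, a phosphatase of ERK, had 1, 3, 2 and 0 steady-state peaks and CCL3, a chemokine, had 4, 3, 0 and 0. Neither had a peak in EU. At 1563 peaks per list the group had 11 members in EU (28.2%, against 16.1% of all genes), 3 and 7 in the hypoxia libraries and 14 in Normoxia replicate 2 (35.9%, against 20.7%), so that Normoxia replicate 2 then exceeded EU.

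Of 12 m6A writers, erasers and readers with a peak, 11 (91.7%) were in EU, against 4, 7, 1 and 6. All genes stood at 55.2%, 29.1%, 49.7%, 3.21% and 20.7%. ZC3H13, which holds the writer complex in the nucleus, had 9 EU peaks and 0, 6, 0 and 2 elsewhere. KIAA1429 (VIRMA), its scaffold, had 4 in EU alone. RBM15, which recruits the writer to RNA, had 7 in EU and otherwise only 3, all from Hypoxia replicate 1. Its relative RBM15B had 2, 0, 4, 0 and 6 with an EU peak of 1349 bases. At 1563 peaks per list, 4 of the 12 were in EU (33.3%, against 16.1% of all genes) and 6 in Normoxia replicate 2. In both groups the EU share therefore exceeded that of every other library at full length and not at equal length.

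Replication-dependent histone genes were listed less often in EU than in the hypoxia libraries. Their transcripts are short, lack introns and end in a stem-loop rather than a poly(A) tail. Of 39 with a peak, 13 (33.3%, against 55.2% of all genes) were in EU. The hypoxia libraries had 30 (76.9%, against 29.1%) and 34 (87.2%, against 49.7%), and the normoxia libraries 9 and 3. Of these genes 19 had a peak in both hypoxia libraries and none in EU. HIST1H2BC had 2 peaks in each of Hypoxia replicates 1 and 2 and Normoxia replicate 1, and none in EU. HIST1H1C and HIST1H3B had 1 in each of the same libraries. HIST1H3H was the only gene of the 20 with a peak in all 4 steady-state libraries that had none in EU. SLBP, the protein that binds the histone stem-loop, had 4, 2, 1 and 0 steady-state peaks and none in EU. HIST1H1D, a linker histone, did have an EU peak, of 571 bases, and HIST1H3D, HIST1H3F and HIST1H3J had 1 each. With 1563 peaks per list EU had 6 (15.4%), near the 16.1% for all genes, and Normoxia replicate 2 had 3. The hypoxia libraries had 19 (48.7%) and 18 (46.2%) there, against 16.0% and 14.4% for all genes. Histone genes are near-identical copies, so the gene named for a peak is uncertain.

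SR and hnRNP splicing factors had fewer members in EU (9 of 25) than in either hypoxia library (14 and 19), and 0 and 5 in the normoxia libraries. Their EU share stood below the 55.2% for all genes, and both hypoxia shares above 29.1% and 49.7%. In lists of 1563 peaks, 4 were in EU, the same share as for all genes (16.1%), and 8 and 7 in the hypoxia libraries. HNRNPR had 5, 6 and 5 peaks in EU and the hypoxia libraries, and HNRNPF had 2 in each of these libraries and in Normoxia replicate 2. HNRNPH2 had 1 in EU and 2 in Normoxia replicate 2. HNRNPDL (3 and 3) and SRSF2 (1 and 4) had hypoxia peaks only. Ribosomal protein genes were in EU in 18 of 34 cases (52.9%, near the 55.2% for all genes), against 10, 21, 2 and 1. At 1563 peaks 1 was in EU (2.94%, against 16.1%), with 7 and 8 in the hypoxia libraries. RPL10 had 3 EU peaks and none elsewhere, while RPL35 had 2 in each hypoxia library and none in EU. Oxidative phosphorylation genes gave 2 of 12 in EU (16.7%), against 4, 7, 0 and 0, and at 1563 peaks the same 16.7% stood beside 16.1% for all genes. The EU members were COX6C and NDUFC1, which had no steady-state peak.

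Long non-coding RNAs that stay in or pass through the nucleus gave 4 of 8 in EU, near the 55.2% for all genes, against 6, 4, 1 and 4. TUG1 had 7 EU peaks, of which 3 met a steady-state peak, against 1, 0, 0 and 6. The EU peak at chr22:30973133-30973432, 300 bases wide, met peaks of both Hypoxia replicate 1 and Normoxia replicate 2. NEAT1, the scaffold of paraspeckles, had 1, 1, 0, 0 and 1 peaks. NORAD, which binds PUMILIO proteins, had 1 EU peak of 899 bases and 2, 1, 0 and 2 elsewhere.

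The study's title names a T cell activation signature. Of 36 T cell receptor signalling genes with a peak, 18 were in EU, against 19, 27, 2 and 3. The EU share is below the 55.2% for all genes, and both hypoxia shares are above the 29.1% and 49.7% for all genes there. At 1563 peaks per list, 10 of 36 (27.8%) were in EU, above the 16.1% for all genes. The hypoxia libraries had 13 (36.1%) and 6 (16.7%) there, where all genes stood at 16.0% and 14.4%. IL2RA, the alpha chain of the IL-2 receptor, had 5 EU peaks, all met by steady-state peaks, and 4, 2, 1 and 0 elsewhere. CD3E, a chain of the T cell receptor complex, had 2 EU peaks, 4 and 5 in the hypoxia libraries and none in normoxia. Its 1-block EU peak at chr11:118312616-118312865 met peaks of both hypoxia libraries. CD247, the zeta chain, had 3, 1, 6, 0 and 0, and SOS1, a Ras activator, had 7, 10, 9, 0 and 0. RASGRP1 (0, 4, 8, 0 and 1) and PPP3R1 (0, 6, 0, 2 and 1), both downstream of the receptor, had none in EU. Of the lineage markers, GZMA (granzyme A) had 1 peak in EU, both hypoxia libraries and Normoxia replicate 1. CD2 (3, 1, 1 and 0 steady-state peaks) and PRF1 (perforin, with 5, 4, 0 and 0) had none in EU.

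Hypoxia-inducible factor targets gave 5 of 9 in EU (55.6%, near the 55.2% for all genes), against 4, 7, 0 and 2. BHLHE40, a transcriptional repressor, had 2 in EU and 2 in each hypoxia library. ENO1, a glycolytic enolase, had 4 in EU alone, and DDIT4, an inhibitor of mTORC1, had 1, 0, 1, 0 and 3. PFKFB3 and SLC2A3, of glycolysis and glucose import, had peaks in both hypoxia libraries and none in EU, and HIF1A had 4 in Hypoxia replicate 2 alone. Chaperones gave 12 of 22 in EU against 7, 15, 0 and 6, and cell cycle genes 16 of 30 against 16, 23, 3 and 3. These EU shares (54.5% and 53.3%) were also near that of all genes. In the second group MCM6, a subunit of the replicative helicase, had 7 EU peaks and 4 in Hypoxia replicate 2. Its partners MCM3 (2, 4, 1 and 0 steady-state peaks) and MCM4 (5, 8, 0 and 0) had none in EU. E2F2, a transcription factor of S-phase entry, had 4 in EU alone.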

How the data were processed

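m6A-enriched RNA (MeRIP) of V16A cells was analysed from 5 peak lists deposited by the authors, 1 per library. RNA was aligned with STAR to hg38, per the submitters' processing notes. How peaks were called, at which threshold, with what input and annotation is not stated there. Each deposited list gives a gene name, strand, exon blocks and a p-value per peak, which is the authors' and was used only to rank peaks within a list. No value of a peak's strength is used here.

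From these, exonic width, block number and peaks per gene were computed (Python 3.11.15, pandas 2.3.3, intervaltree 3.1.0). Overlap needed 1 exonic base on the same strand and was checked on simulated peaks. Of 4327 gene names, 3988 (92.2%) matched a RefSeq gene (GRCh38.p14) by symbol within 10 kb, and position was the middle exonic base in that span. No test was run, since EU has 1 library. Members, gene lists and comparisons were chosen with earlier results of these data known. Genes were named by rule: those with the smallest p, most peaks, largest excess or deficit, most blocks or widest peaks, up to 4 members of each list with an EU peak and 2 without, and a fixed set; GRIN3A and FLNA fall under more than 1 part. The starts shown were ranked by p after their values were seen. Alternatives were the smallest-p 50% of peaks, wide peaks, chromosomes 1 to 22 and X, equal list lengths, 50% reciprocal overlap, 1-block peaks, the far end of a peak, and each steady-state library left out. Some items are not reported here.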

Additional observations from a re-analysis of the deposited data

Results flagged for a closer look

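The balance of peaks per gene had opposite signs in the hypoxia and normoxia libraries. The share of shared genes with more EU peaks minus the share with fewer was -4.56 percentage points against Hypoxia replicate 1 and -25.6 against Hypoxia replicate 2. It was 42.2 against Normoxia replicate 1 and 12.5 against Normoxia replicate 2. The difference between the conditions was not tested. List length moved with it, since the normoxia lists are the 2 shortest, and with each pair of lists shortened to the same length the values were 0, -28.4, 0 and 1.32.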

How the results depend on the processing

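Over 15 results and 116 alternatives, 83 values stayed within the spread used for that result, 28 moved beyond it and 5 changed sign. For means over the 4 libraries, that spread was the standard deviation over them, 28.7 points for peaks per gene. It was 12.5 points for the share of peaks that joined exons, so its change from -8.23 to -0.764 within shared genes counts as stayed. Leaving out 1 library cannot move such a mean beyond this spread, so staying within it there shows nothing. Of the 56 alternatives without 1 library 47 stayed, and of the 60 others 36. The alternatives on gene lists, on genes shared by both lists and on merged peaks were chosen after seeing the data. With all 5 lists at 212 peaks, the EU-only count was 81 in place of 1101 and the count in all 5 was 0. With each pair cut to the length of its shorter list, the EU peaks met in any pair were 26.8% of the uncut EU list. Since that total was not cut, the value is not a share of a shortened list. Steady-state peaks were met in 15.0% at these pair lengths, as a mean over the 4 libraries. The mean differences from the 4 libraries became 61.0 bases in width, -0.725 points in the first 20% of the span and -6.76 points in peaks per gene, against 48.75, -3.12 and 6.12. With the 50% of smallest p, EU had 1173 genes and 1 gene was in all 5. EU peaks were met in 26.1% and steady-state peaks in 23.05%, and the first 20% differed by -0.142. Wide peaks gave 38.9% and 7 genes in all 5, and 50% overlap gave 22.7% and 17.5%. One-block peaks gave 50.75 bases, and shared genes gave 73.75 bases and -1.38 in the first 20%. For gene lists, the EU share minus the mean of the libraries was 75.7 points for ZNF genes, 39.9 with the 50% of smallest p and 18.2 with the 4 longest lists at the same length. At that length it was 7.69 for immediate early genes and 5.56 for m6A factors, against 57.7 and 54.2. Splicing factors changed from -2.0 to 1.0 with the 50% of smallest p. Leaving out 1 library gave -5.90 (without Normoxia replicate 1) to 16.7 for peaks per gene. It gave 27.3% to 41.7% for EU peaks met and 24 to 127 for genes in all 5. For splicing factors it gave -14.7 to 10.7, with 4.00 without Hypoxia replicate 1 and 10.7 without Hypoxia replicate 2. The cause of these changes was not tested beyond the shorter lists themselves. No paired analysis was possible because the EU group has 1 library and no result comes from a test. Read depth was not used here, so what depth limits is unknown.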
